A study of Mus musculus with 8 samples.

Results

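The genes described here are 9 factors and markers of memory B cells, taken by symbol from a table of 23234 mouse genes: Hhex, Tle3, Ski, Zbtb32, Cd38, Nt5e, Cd80, Pdcd1lg2 and Il9r. Their RNA was measured in germinal centre B cells from the spleen of C57BL/6 mice, in 8 libraries that form 4 groups of 2. The groups were light zone (LZ) and dark zone (DZ) cells that were either Bach2(+/+) or Bach2(f/f), and each is named by its label. Every group also carried Prdm1(f/f), a floxed form of the gene for the plasma cell regulator Blimp1. All had in addition ERT2cre(KI/+), a tamoxifen-activated Cre, and B1-8hi(KI/+), an antigen receptor knock-in with affinity for the hapten NP. The comparison is therefore of cells meant to lack Bach2 and Prdm1 with cells meant to lack Prdm1, and no group had both genes intact. Naive donor cells were placed in wild-type recipients, which received 3 mg tamoxifen for 3 days and then NP-CGG in alum, and donor cells positive for NP and GL7 and negative for CD38 were sorted on day 10 from the pooled spleens of 5 recipients. LZ cells were taken as CD86 high and CXCR4 low, and DZ cells as CD86 low and CXCR4 high. The labels do not say whether the 2 libraries of a group came from separate pools, so every p-value here is set against a spread between libraries that may be technical. The mice's ages were not given in the sources used here.

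Germinal centre B cells divide and mutate their antigen receptor genes in the dark zone and are selected by antigen and T cell help in the light zone, from which cells can leave as memory B cells. Bach2 is a transcriptional repressor that holds back the plasma cell programme in B cells and is needed for memory B cell formation in mice. Hhex is a homeobox transcription factor needed for memory B cells to form in mice, where it works with the co-repressor Tle3. Ski is a co-repressor of SMAD proteins, and Zbtb32 is a zinc finger repressor that limits recall responses of mouse memory B cells. Cd38 and Nt5e (CD73) encode surface enzymes acting on NAD and on AMP, and Cd80 and Pdcd1lg2 (PD-L2) encode ligands of T cell receptors of the CD28 and PD-1 type. With Nt5e, these ligands are used to divide mouse memory B cells into subsets. Il9r encodes the ligand-binding chain of the interleukin-9 receptor.

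The labelled cell type was checked against defining markers. The summed level of 8 germinal centre markers was 983 to 1071 FPKM over the 8 libraries (sequenced fragments divided by transcript length and by the library's mapped fragments), and all 8 genes were above 1 FPKM in every group. Of 7 T cell markers, 6 were below 1 FPKM in every group. The other, Lck, was higher in LZ than in DZ, by 0.68 in Bach2(+/+) and 0.89 in Bach2(f/f) on a log2(FPKM + 1) scale. The 7 summed to 54.2 to 65.5 FPKM in the LZ libraries and 32.8 to 35.6 in the DZ libraries. The level of Bach2 itself was 49.8 and 53.4 FPKM in Bach2(+/+) LZ, 64.5 and 62.7 in Bach2(f/f) LZ, 76.2 and 74.6 in Bach2(+/+) DZ, and 96.2 and 94.5 in Bach2(f/f) DZ. It was thus not lower in the libraries labelled Bach2(f/f). A level over the whole gene also counts exons that the deletion leaves, so it checks neither the deletion nor the labels. Prdm1 was at 0.0184 to 0.122 FPKM in the Bach2(+/+) libraries and 0.258 to 0.980 in the Bach2(f/f) libraries. Library totals were 502214 to 540885 FPKM. The number of reads behind each value was not given, so no counting error is attached to single values.

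Of the 9 genes, 8 had at least 1 FPKM in at least 2 libraries and were tested. Ski, at 0.370 to 0.651 FPKM, was below that filter. Hhex passed it through the LZ libraries alone. Cd80 was near it and passed through both Bach2(+/+) DZ libraries, at 1.05 and 1.12 FPKM, and replicate 2 of Bach2(f/f) LZ, at 1.26. A gene that passes through a single zone has to differ between zones. Counts over the 8 genes are therefore given as a description only.

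In LZ cells, Hhex, Cd38 and Nt5e were lower in Bach2(f/f) than in Bach2(+/+). Mean Hhex was 4.57 ± 0.420 FPKM (SD, n = 2) in Bach2(+/+) and 1.62 ± 0.227 (SD, n = 2) in Bach2(f/f). Mean Cd38 was 13.8 ± 1.45 and 6.78 ± 0.461 FPKM (SD, n = 2 each), and mean Nt5e was 8.91 ± 0.378 and 6.46 ± 0.227 FPKM (SD, n = 2 each). The other 5 tested genes, Tle3, Zbtb32, Cd80, Pdcd1lg2 and Il9r, did not pass the test. By limma on log2(FPKM + 1) over 10610 genes, with a Benjamini-Hochberg adjusted p under 0.05, 0 of the 8 rose and 3 fell, where 18.4% of all genes tested rose and 12.7% fell. At an unadjusted p under 0.05 there was 1 more, Cd80, which was higher in Bach2(f/f). The median difference over the 8 was -0.23 on that scale, beside 0.02 over all genes tested.

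In DZ cells, Cd38 was the single gene of the 8 past the threshold. Its mean was 6.70 ± 0.234 FPKM in Bach2(+/+) and 4.03 ± 0.0143 FPKM in Bach2(f/f) (SD, n = 2 each). Over all genes tested, 6.63% rose and 5.23% fell in this comparison, and 1 of the 8 fell. Of the genes past the threshold in DZ, 55.9% were higher in Bach2(f/f), a share that was 44.6% with upper quartile scaling and 66.8% with equal library totals. The median over the 8 was -0.15, beside 0.01 over all genes tested.

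**Figure D1:**
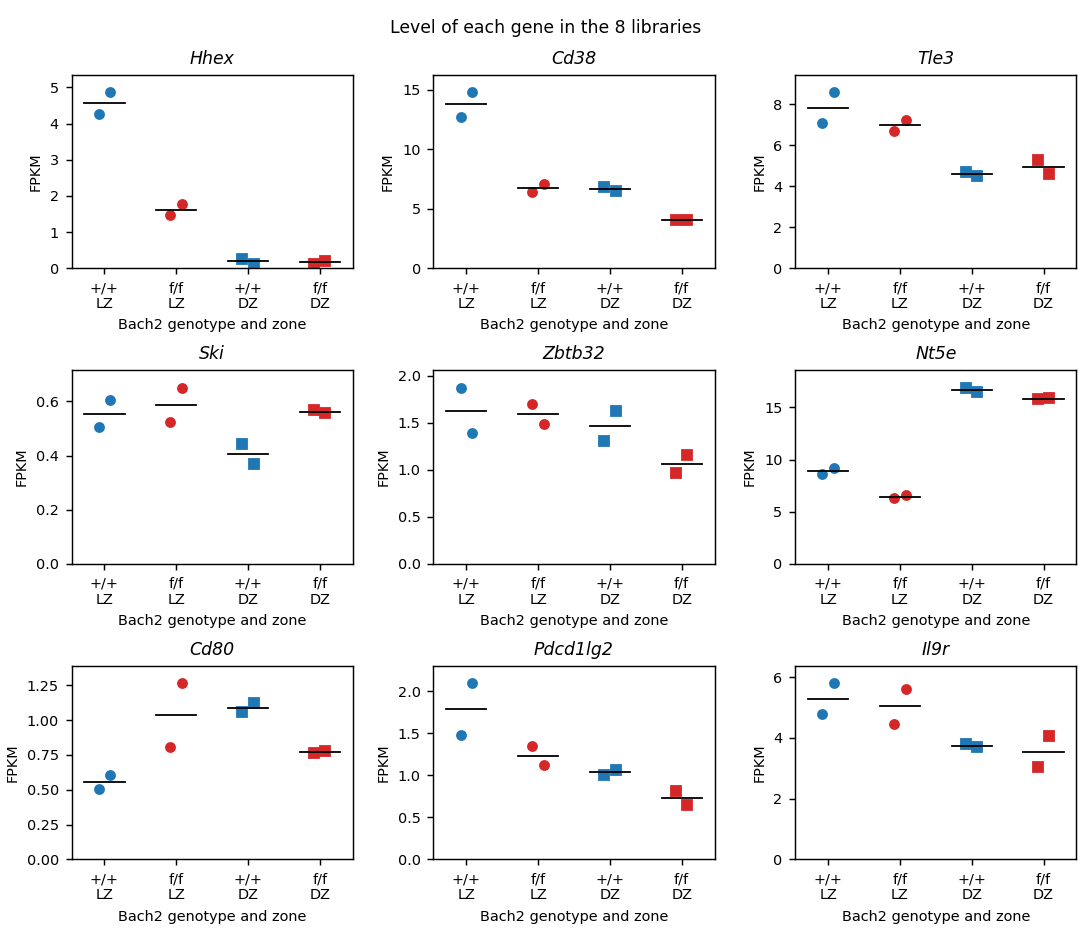
FPKM of the 9 genes (y axis of each panel, from 0) in the 4 groups (x axis), with a point for each library, circles for LZ, squares for DZ, blue for Bach2(+/+), red for Bach2(f/f) and a black line at the group mean. Hhex was 4.27 and 4.87 in Bach2(+/+) LZ and at most 0.261 in any DZ library, whereas Nt5e was at least 15.8 in every DZ library and at most 9.17 in LZ.

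Among the regulators, Hhex had the widest range. It was at 4.27 and 4.87 FPKM in Bach2(+/+) LZ, 1.46 and 1.78 in Bach2(f/f) LZ, 0.261 and 0.128 in Bach2(+/+) DZ, and 0.127 and 0.207 in Bach2(f/f) DZ. Both Bach2(+/+) LZ libraries were above both Bach2(f/f) LZ libraries, both LZ groups were above all DZ libraries, and the DZ groups overlapped. As a scale for this and each gene below, 65.9% of all genes tested did not overlap between the LZ genotypes and 58.6% between the DZ genotypes. Between the zones it was 65.8% in Bach2(+/+) and 73.2% in Bach2(f/f). In LZ the difference between genotypes, Bach2(f/f) minus Bach2(+/+), was -1.09 ± 0.12 log2 units (SE, adjusted p = 0.00179), with the mean 2.82-fold lower in Bach2(f/f). By size it ranked 127 of the 10610 genes tested. In DZ the difference was -0.03 ± 0.12 (adjusted p = 0.898), between levels too low to show one on this scale.

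Tle3 was at 7.09 and 8.60 FPKM in Bach2(+/+) LZ, 6.70 and 7.26 in Bach2(f/f) LZ, 4.70 and 4.50 in Bach2(+/+) DZ, and 5.29 and 4.62 in Bach2(f/f) DZ. The genotypes overlapped in both zones, and every LZ library was above every DZ library. The genotype difference was -0.14 ± 0.10 in LZ (95% interval -0.39 to 0.10, adjusted p = 0.334) and 0.09 ± 0.10 in DZ (adjusted p = 0.654), so that a loss in LZ as large as that of Hhex lay outside the interval.

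Zbtb32 was at 1.87 and 1.39 FPKM in Bach2(+/+) LZ, 1.70 and 1.49 in Bach2(f/f) LZ, 1.30 and 1.62 in Bach2(+/+) DZ, and 0.972 and 1.16 in Bach2(f/f) DZ. The lowest libraries were the 2 of Bach2(f/f) DZ, which did not overlap with Bach2(+/+) DZ, and the other groups overlapped. As a scale for that, 58.6% of all genes tested did not overlap between the DZ genotypes. The genotype difference was -0.01 ± 0.13 in LZ (95% interval -0.32 to 0.30, adjusted p = 0.950) and -0.25 ± 0.13 in DZ (adjusted p = 0.261).

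Ski was at 0.506 and 0.604 FPKM in Bach2(+/+) LZ, 0.526 and 0.651 in Bach2(f/f) LZ, 0.444 and 0.370 in Bach2(+/+) DZ, and 0.568 and 0.556 in Bach2(f/f) DZ. Bach2(+/+) DZ held the lowest 2 libraries, and the other 3 groups overlapped. In a fit with no filter on low values (16526 genes) its genotype difference was 0.03 ± 0.059 in LZ (adjusted p = 0.810) and 0.15 ± 0.059 in DZ (adjusted p = 0.231).

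Of the surface enzymes, Cd38 was at 12.7 and 14.8 FPKM in Bach2(+/+) LZ, 6.45 and 7.10 in Bach2(f/f) LZ, 6.86 and 6.53 in Bach2(+/+) DZ, and 4.04 and 4.02 in Bach2(f/f) DZ. Bach2(+/+) LZ was highest, Bach2(f/f) DZ was lowest, and the 2 groups between them overlapped. The genotype difference was -0.92 ± 0.084 in LZ (SE, adjusted p = 0.00125, mean 2.03-fold lower) and -0.61 ± 0.084 in DZ (adjusted p = 0.00996, mean 1.66-fold lower). In DZ the adjusted p was 0.0579 without Bach2(+/+) DZ replicate 1, 0.0740 without Bach2(f/f) DZ replicate 1 and 0.0723 without Bach2(f/f) DZ replicate 2, with the gene lower in Bach2(f/f) each time. All libraries were sorted as negative for CD38 protein, so these levels describe the RNA left in cells below that gate. In bulk RNA, fewer cells that carry a transcript and less of it per cell cannot be told apart.

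Nt5e was at 8.64 and 9.17 FPKM in Bach2(+/+) LZ, 6.30 and 6.62 in Bach2(f/f) LZ, 16.9 and 16.5 in Bach2(+/+) DZ, and 15.8 and 15.9 in Bach2(f/f) DZ. No group overlapped with another, and both DZ groups were above both LZ groups. Of all genes tested, 65.9% did not overlap between the LZ genotypes and 58.6% between the DZ genotypes, with 65.8% and 73.2% between the zones of Bach2(+/+) and Bach2(f/f). The genotype difference was -0.41 ± 0.053 in LZ (SE, adjusted p = 0.00289, mean 1.38-fold lower in Bach2(f/f)). In DZ it was -0.07 ± 0.053 (95% interval -0.20 to 0.06, adjusted p = 0.445).

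Among the costimulatory ligands, Cd80 was at 0.508 and 0.607 FPKM in Bach2(+/+) LZ, 0.808 and 1.26 in Bach2(f/f) LZ, 1.05 and 1.12 in Bach2(+/+) DZ, and 0.765 and 0.782 in Bach2(f/f) DZ. Bach2(f/f) LZ was above Bach2(+/+) LZ, whereas Bach2(f/f) DZ was below Bach2(+/+) DZ, with no overlap in either zone. Of all genes tested, 65.9% did not overlap between the LZ genotypes and 58.6% between the DZ genotypes. Neither difference passed the test, at 0.38 ± 0.13 in LZ (SE, 95% interval 0.07 to 0.68, adjusted p = 0.0636) and -0.24 ± 0.13 in DZ (adjusted p = 0.288). The LZ value rested on the Bach2(f/f) pair: it was 0.22 without replicate 2 and 0.54 without replicate 1, where its adjusted p was 0.0373. Replicate 2 of Bach2(f/f) LZ also had the highest summed level of 11 macrophage, dendritic and neutrophil markers, 176 FPKM beside 50.5 in replicate 1 and 49.0 and 94.9 in the Bach2(+/+) LZ libraries, with Csf1r, Itgam and Itgax under 1 FPKM in both LZ groups. Of its 8 tested genes 1 rose and 2 fell between the LZ genotypes, with a median difference of 0.78: Tyrobp rose (1.45 ± 0.44, SE, adjusted p = 0.0493), and Flt3 (-0.60 ± 0.060, adjusted p = 0.00161) and Mpeg1 (-0.59 ± 0.15, adjusted p = 0.0275) fell. The part of those cells in the Cd80 level was not tested.

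Pdcd1lg2 was at 1.48 and 2.09 FPKM in Bach2(+/+) LZ, 1.35 and 1.12 in Bach2(f/f) LZ, 1.00 and 1.06 in Bach2(+/+) DZ, and 0.812 and 0.647 in Bach2(f/f) DZ. In each zone the Bach2(f/f) libraries were the lower pair, with no overlap, as for 65.9% of all genes tested in LZ and 58.6% in DZ, and neither difference passed the test. The difference was -0.31 ± 0.13 in LZ (95% interval -0.63 to 0.0054, adjusted p = 0.120) and -0.23 ± 0.13 in DZ (adjusted p = 0.309). Il9r was at 4.78 and 5.80 FPKM in Bach2(+/+) LZ, 4.47 and 5.63 in Bach2(f/f) LZ, 3.79 and 3.70 in Bach2(+/+) DZ, and 3.05 and 4.06 in Bach2(f/f) DZ. Its genotypes overlapped in both zones, and the difference was -0.06 ± 0.15 in LZ (95% interval -0.41 to 0.29, adjusted p = 0.798) and -0.07 ± 0.15 in DZ (adjusted p = 0.818).

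**Figure D2:**
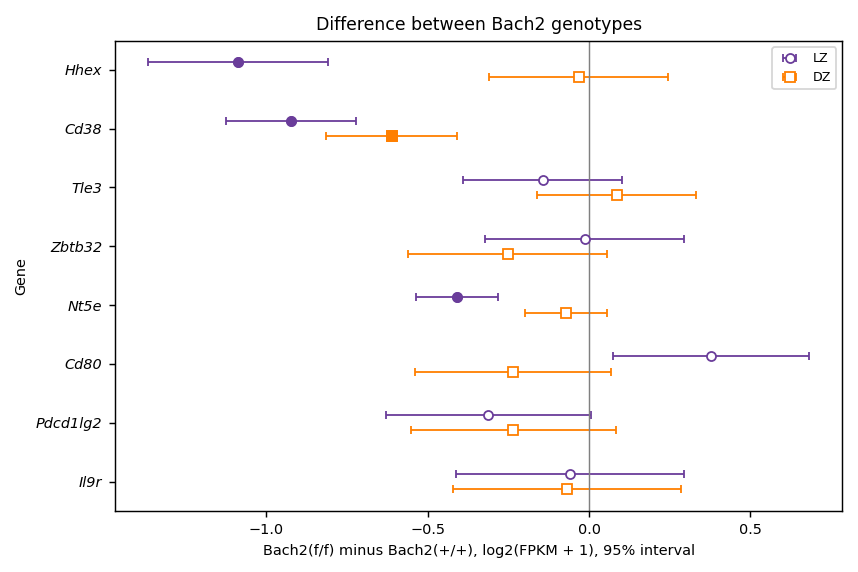
Difference between Bach2 genotypes (x axis, Bach2(f/f) minus Bach2(+/+), log2(FPKM + 1)) for the 8 genes tested (y axis), with circles for LZ, squares for DZ, bars for the 95% interval and filled symbols for an adjusted p under 0.05. Hhex, Cd38 and Nt5e in LZ and Cd38 in DZ are filled, and Cd80 is the single gene to the right of 0 in LZ.

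Other cell markers moved with genotype as well. The summed level of 7 naive and marginal zone B cell markers, mostly Fcer2a and Cr2, was 373 to 406 FPKM in Bach2(+/+) LZ and 202 to 210 in Bach2(f/f) LZ, and 124 to 131 and 67.5 to 68.1 in DZ. The sum of 5 general B cell markers was 3566 to 3685 and 3092 to 3102 in LZ, and 3063 to 3178 and 2645 to 2694 in DZ. The 6 light zone markers, Fcer2a included, summed to 834 to 928 in Bach2(+/+) LZ and 644 to 655 in Bach2(f/f) LZ. The cells were sorted as positive for NP and GL7 and negative for CD38. The part of any naive and marginal zone B cells in the Cd38 level was not tested.

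The promoters of the 3 genes that fell in LZ are shown because all 3 moved in that comparison and their start regions differ in CpG content, the dinucleotide on which DNA methylation acts. Each sequence is the 250 bases before the RefSeq start in GRCm38.p6, 5' to 3' on the gene's plus strand, with CpG in capitals. The expression values were made on mm9, and no coordinate was carried between the builds. Hhex lies on chromosome 19 (chr19:37434591-37434840), Cd38 on chromosome 5 (chr5:43868559-43868808) and Nt5e on chromosome 9 (chr9:88327359-88327608).
Hhex: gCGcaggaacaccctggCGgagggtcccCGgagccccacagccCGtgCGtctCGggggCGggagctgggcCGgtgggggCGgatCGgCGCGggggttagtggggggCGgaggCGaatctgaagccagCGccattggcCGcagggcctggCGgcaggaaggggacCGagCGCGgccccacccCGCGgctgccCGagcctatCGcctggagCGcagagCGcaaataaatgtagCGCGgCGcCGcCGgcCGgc
Cd38: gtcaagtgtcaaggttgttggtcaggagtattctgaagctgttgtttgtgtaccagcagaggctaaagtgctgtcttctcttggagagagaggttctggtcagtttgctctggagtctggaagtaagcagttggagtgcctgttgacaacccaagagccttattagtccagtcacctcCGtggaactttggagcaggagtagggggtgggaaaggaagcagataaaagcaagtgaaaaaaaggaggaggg
Nt5e: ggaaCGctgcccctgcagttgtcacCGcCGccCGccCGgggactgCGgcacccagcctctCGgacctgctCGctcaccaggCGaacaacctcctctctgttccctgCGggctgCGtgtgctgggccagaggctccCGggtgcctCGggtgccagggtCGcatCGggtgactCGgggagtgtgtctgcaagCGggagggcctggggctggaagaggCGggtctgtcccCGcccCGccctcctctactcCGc

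The Hhex promoter held 32 CpG and the Nt5e promoter 21, whereas the Cd38 promoter held 1. Over 32851 mouse promoters of this length in the table, the median was 6 CpG, and 95.4% held fewer than Hhex, 83.7% fewer than Nt5e and 7.87% fewer than Cd38. All 9 genes had an entry, with 10 promoters in all since Zbtb32 had 2. Searched on both strands, the AP-1 motif TGAGTCA was in 0 of the 10 promoters and in 4.46% of all promoters. The longer motif TGCTGAGTC, of the kind that Bach and Maf proteins bind, was in 0 of the 10 and in 0.344% of all. Its first 6 bases, TGCTGA, were in 2 of the 10, a promoter of Zbtb32 and that of Il9r, and in 16.1% of all. These motifs overlap each other, and a match or its absence describes the letters in this window alone.

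Between the zones of Bach2(+/+) cells, Hhex, Cd38, Tle3 and Pdcd1lg2 were higher in LZ, and Nt5e and Cd80 were higher in DZ. Of the 8 genes tested, 4 rose and 2 fell in LZ relative to DZ, where 15.2% of all genes tested rose and 16.1% fell. Of all genes past this threshold 48.6% were higher in LZ, or 34.6% with equal library totals. The widest difference was that of Hhex, whose mean was 23.5-fold higher in LZ (2.22 ± 0.12 log2 units, SE, adjusted p = 0.000142, rank 62 by size among 10610). Its filter was passed through LZ, which fixes that it is higher there. Cd38 was 2.06-fold higher in LZ (0.94 ± 0.084, adjusted p = 0.000708) and Tle3 1.70-fold higher (0.65 ± 0.10, adjusted p = 0.00508). Nt5e was 1.87-fold higher in DZ, a difference of -0.84 ± 0.053 (adjusted p = 0.000229).

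The calls of the ligands were less firm. Pdcd1lg2 was higher in LZ by 0.45 ± 0.13 (SE, adjusted p = 0.0446) and Cd80 was lower by -0.42 ± 0.13 (adjusted p = 0.0461), with no overlap between the zones for either. Among the Bach2(+/+) libraries, Cd80 reached the filter of 1 FPKM in DZ alone. The direction of its call was thus favoured by the filter, and the call is a description only. Pdcd1lg2 was past the threshold in 5 of 18 alternatives (adjusted p from 0.0205 to 0.171) and Cd80 in 10 of 18 (0.0283 to 0.160). With the replicate number as a block the adjusted p was 0.0700 for Pdcd1lg2. Without any single Bach2(+/+) or Bach2(f/f) DZ library the call of Cd80 was lost. Il9r was 1.41-fold higher in LZ without passing the test (0.40 ± 0.15, adjusted p = 0.0828, or 0.0397 with the replicate block), and Zbtb32 differed by 0.09 ± 0.13 (adjusted p = 0.622). Of all genes tested, 65.8% did not overlap between these zones.

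In Bach2(f/f) cells, 3 of the 8 rose in LZ and 1 fell, where 18% of all genes tested rose and 16.1% fell. Of all genes past the threshold 52.9% were higher in LZ, or 33.8% with equal library totals. Hhex was also higher in LZ here, 9.71-fold by the means (1.17 ± 0.12, SE, adjusted p = 0.000808), as was Cd38, 1.68-fold (0.63 ± 0.084, adjusted p = 0.00243). For Hhex the filter was again passed through LZ alone, so its direction is a description only. Its ratio also divides by a DZ mean of 0.167 FPKM. Tle3 was 1.41-fold higher (0.42 ± 0.10, adjusted p = 0.0210), a call lost without Bach2(f/f) LZ replicate 1 (adjusted p = 0.0563), Bach2(f/f) LZ replicate 2 (0.104) or Bach2(f/f) DZ replicate 2 (0.112). Nt5e was lower in LZ by -1.18 ± 0.053 (adjusted p = 7.02e-05), 2.45-fold by the means. The other 4 did not pass: Il9r at 0.41 ± 0.15 (adjusted p = 0.0734, or 0.0337 with the replicate block), Pdcd1lg2 at 0.37 ± 0.13 (0.0737), Zbtb32 at 0.33 ± 0.13 (0.0918) and Cd80 at 0.19 ± 0.13 (0.290).

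**Figure D3:**
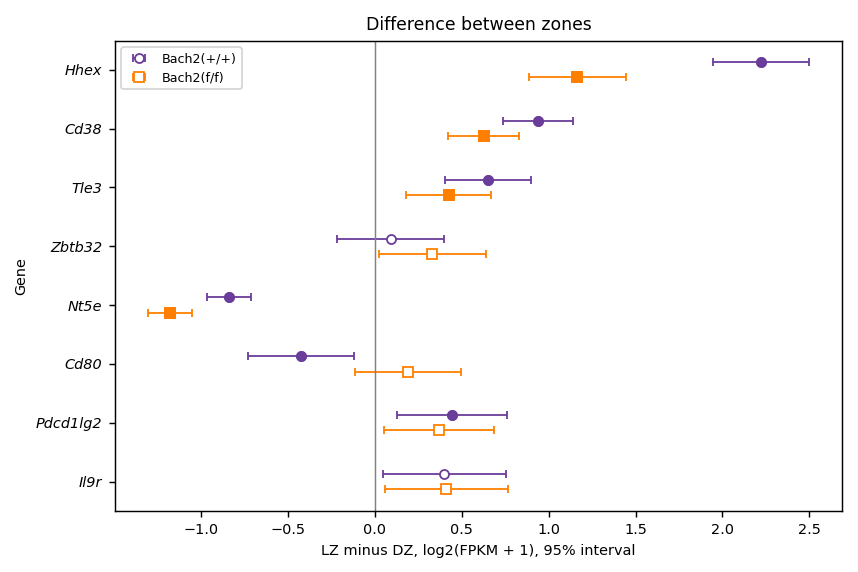
Difference between zones (x axis, LZ minus DZ, log2(FPKM + 1)) for the 8 genes tested (y axis), with circles for Bach2(+/+), squares for Bach2(f/f), bars for the 95% interval and filled symbols for an adjusted p under 0.05. Hhex, Cd38 and Tle3 lie right of 0 and Nt5e left of 0 in both genotypes, while Cd80 lies left of 0 in Bach2(+/+), at -0.42, and right of it in Bach2(f/f), at 0.19.

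Whether the effect of genotype differed between the zones was tested directly. By limma 0 of the 8 genes passed, and 3 of the 10610 genes did (0.0283%). In the same limma fit 4 were at an unadjusted p under 0.05: Hhex (LZ effect minus DZ effect -1.06 ± 0.16, SE, adjusted p = 0.285), Nt5e (-0.34 ± 0.074, adjusted p = 0.336), Cd80 (0.61 ± 0.18, adjusted p = 0.356) and Cd38 (-0.31 ± 0.12, adjusted p = 0.409). Hhex in DZ was too low to fall further on this scale, so its value is not a measure of zone specificity. For the genes called in LZ and not in DZ, a difference between the zones is thus not shown after adjustment over all genes.

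FPKM are per transcript length, so the levels of the genes can be ordered within a group. In Bach2(+/+) LZ, Cd38 was highest, followed by Nt5e and Tle3, then Il9r and Hhex, Pdcd1lg2 and Zbtb32, and Cd80 and Ski, where each of these last 3 pairs overlapped. In Bach2(f/f) LZ, Tle3, Cd38 and Nt5e overlapped at the top, Il9r was next, Hhex overlapped with Zbtb32 and Pdcd1lg2 with Cd80, and Ski was lowest. In both DZ groups Nt5e was highest and Hhex was lowest, below Ski. By the group mean Nt5e stood above 81.0% of all genes in the table in Bach2(+/+) DZ, and Hhex above 48.5%.

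The pathways to which the genes belong were counted with lists that do not include them. Each count below is to be read beside the shares of all genes tested, which in LZ were 18.4% risen and 12.7% fallen in Bach2(f/f), and in DZ 6.63% and 5.23%. The split between risen and fallen moved with the scaling of libraries, as given above. Among 24 other memory and memory precursor genes, 19 were tested; in LZ 0 rose and 9 fell in Bach2(f/f), with a median of -0.28 beside 0.02 over all genes, and in DZ 0 rose and 7 fell (median -0.30 beside 0.01). In LZ the smallest p-values belonged to Fcer2a, the low-affinity IgE receptor CD23 (-0.98 ± 0.050, SE), Ccr6 and Cxcr3, chemokine receptors (-1.26 ± 0.11 and -1.70 ± 0.15), and Cr2, complement receptor CD21 (-0.78 ± 0.087). The adjusted p of these 4 was 0.000598 to 0.00198. Ccr6 and Pik3ip1 of this list reached 1 FPKM in Bach2(+/+) LZ alone, and Cxcr3 in the Bach2(+/+) groups alone. Passing the filter thus fixed that these genes are lower in Bach2(f/f) LZ, and the counts are a description only. Zeb2, at 0.522 and 0.449 FPKM in Bach2(+/+) LZ and 0.960 and 1.00 in Bach2(f/f) LZ, was below the filter. The LZ count was 5 without Bach2(f/f) LZ replicate 1. The DZ count was 4 without either Bach2(+/+) DZ library and 1 without either Bach2(f/f) DZ library. Fcer2a and Cr2 also belong to the naive and marginal zone markers. Klf2, a quiescence factor of the same list, was at 10.5 and 3.94 FPKM in Bach2(+/+) LZ and 11.3 and 3.49 in Bach2(+/+) DZ, beside 3.00 to 4.38 in the Bach2(f/f) libraries, and did not pass the test.

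**Figure D4:**
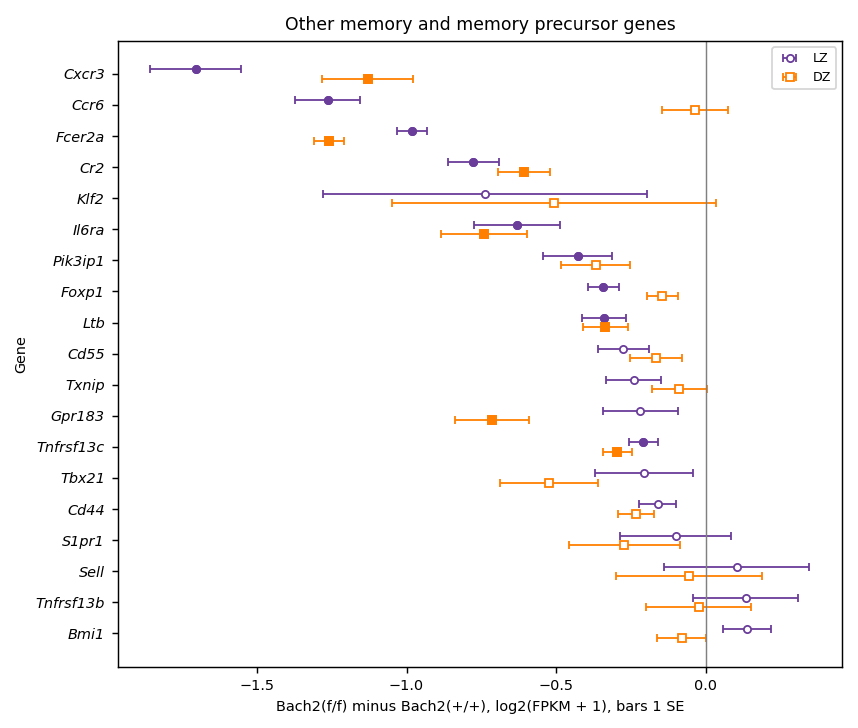
Difference between Bach2 genotypes (x axis, Bach2(f/f) minus Bach2(+/+), log2(FPKM + 1)) for the 19 other memory and memory precursor genes tested (y axis, ordered by the LZ value), with circles for LZ, squares for DZ, bars of 1 SE and filled symbols for an adjusted p under 0.05. Filled symbols, 9 in LZ and 7 in DZ, all lie left of 0, from Cxcr3 at -1.70 in LZ.

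The partners of the regulators were mixed. Of the Groucho/TLE family beside Tle3, 3 of 5 were tested (Tle1, Tle4 and Aes), and 0 passed in either genotype contrast or either zone contrast by limma. At an unadjusted p under 0.05 there was 1 gene in these contrasts, Tle4 between the Bach2(f/f) zones (-0.18 ± 0.067 for LZ minus DZ, SE, adjusted p = 0.0799). Tle4 was at 15.7 to 18.6 FPKM over the 8 libraries and Tle1 at 1.89 to 3.42. All 13 genes of the list of SKI and SMAD partners were tested: in LZ 3 rose and 4 fell in Bach2(f/f) (median 0.050), the share that rose being near the 18.4% of all genes, with the signal mediator Smad3 up (0.69 ± 0.11, SE, adjusted p = 0.00526), the TGF-beta receptor chain Tgfbr1 up (0.24 ± 0.041, adjusted p = 0.00696), and the other chain, Tgfbr2, down (-0.38 ± 0.050, adjusted p = 0.0032). The 4 that fell were 1 without either Bach2(f/f) LZ library or Bach2(+/+) LZ replicate 1, and 2 without either Bach2(f/f) DZ library. In DZ 2 rose and 1 fell, and with any single DZ library left out no more than 1 rose and none fell. In the list of 13 other BTB zinc finger genes, relatives of Zbtb32, 9 were tested, and 2 fell in LZ (Zbtb24 at -0.33 and Zbtb7b at -0.19; median -0.045), a count near that of the 12.7% over all genes, and none in DZ; the LZ count was 0 without Bach2(f/f) LZ replicate 1 and 1 without any other library except Bach2(+/+) LZ replicate 1.

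Of 11 genes that handle adenosine or NAD, the products and substrates of Nt5e and Cd38, 5 were tested. In LZ 4 rose in Bach2(f/f) and 0 fell (median 0.26, beside 18.4% risen over all genes), led by Slc29a1, a nucleoside transporter, at 19.7 and 18.5 FPKM in Bach2(+/+) and 34.9 and 34.8 in Bach2(f/f) (0.84 ± 0.048, SE, adjusted p = 0.000772). The other 3 were the adenosine kinase Adk (0.35), the NAD synthesis enzyme Nampt (0.26) and the ectonucleotidase Enpp1 (0.25), and the count was 1 without Bach2(f/f) LZ replicate 1. In DZ Slc29a1 rose by 0.56 ± 0.048 (adjusted p = 0.00305). Ada, which degrades adenosine, was higher in DZ in Bach2(+/+) cells (-1.07 ± 0.061 for LZ minus DZ, adjusted p = 0.000184). Entpd1 (CD39), which supplies AMP to Nt5e, was at most 0.180 FPKM in any library.

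Of 10 further B7 family ligands and receptors, 5 were tested. In LZ, where 12.7% of all genes fell, 2 fell in Bach2(f/f) (median of the 5, -0.24), Icosl, the ligand of ICOS (-0.58 ± 0.043, SE, adjusted p = 0.000914), and Cd86 (-0.32 ± 0.079, adjusted p = 0.0238), and in DZ Icosl alone fell (-0.33 ± 0.043, adjusted p = 0.00883). Without Bach2(+/+) LZ replicate 2 or either Bach2(f/f) LZ library the LZ count was 1, and without either Bach2(f/f) DZ library the DZ count was 0. Cd86 was used in the sort of the zones, so its level between zones is no finding. Pdcd1 (PD-1), a receptor of Pdcd1lg2, was at most 0.350 FPKM in any library.

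A list of 12 genes held signalling partners of Il9r and receptor chains of other cytokines, Il4ra and Il21r included. Of these, 9 were tested. In LZ 0 rose and 4 fell in Bach2(f/f) (median -0.13, beside 12.7% fallen over all genes). Among them were Il2rg, the shared receptor chain (-0.31 ± 0.046, SE), Il4ra, a chain of the interleukin-4 receptor (-0.31 ± 0.051), and Jak1 (-0.20 ± 0.047), with adjusted p from 0.00483 to 0.0195. In DZ, where 5.23% of all genes fell, 4 fell, Il2rg, Il4ra and Jak1 included, with Jak1 just under the threshold (adjusted p = 0.04996). The count was lower with any single library of either zone left out, and lowest without a Bach2(f/f) DZ library. Il2rg was at 101 and 103 FPKM in Bach2(+/+) LZ and 52.4 and 55.3 in Bach2(+/+) DZ, a zone difference of 0.91 ± 0.046 (adjusted p = 0.000142). Il9, the ligand, was listed at 0 in all 8 libraries.

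For each gene tested, up to 3 genes with the most like pattern over the 8 libraries are given, found by Pearson's r of log2(FPKM + 1) among 7477 genes with a highest group mean of at least 5 FPKM. The libraries form 4 groups, so r is mostly a likeness of 4 group means and is given with no test. Nearest to Hhex were Clcf1, Ift140 and Crtc2 (r = 0.996 each), and nearest to Cd38 were Snx29 and Btla (0.997 each) and Sp140 (0.996). Tle3 was followed by Cd84 (0.985), Plek and Evi2a (0.983 each). Nt5e was followed by Ctdsp2 (0.997), Bptf (0.995) and Itgb3 (0.994), and Pdcd1lg2 by Trim68 (0.979), Soat1 (0.976) and Dexi (0.975). Il9r was nearest to Necap1 (0.976), Ebag9 (0.963) and Abcc4 (0.956), Zbtb32 to Sh3bgrl (0.942) and Ftl1 (0.933), and Cd80 to Glcci1 (0.977), Isca1 (0.918) and AK010878 (0.917).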

How the data were processed

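RNA of 8 sorted cell samples was sequenced, with 2 libraries in each of 4 groups. The deposited table holds FPKM for 23234 gene symbols in 8 columns, per the file headers, and 1 row of library codes was left out. TopHat2 2.0.8, Cufflinks 2.1.1 and mm9 appear in the submitters' processing notes, where roles, options and annotation are not stated. Libraries were made with the NEBNext Ultra kit, per the labels' protocols, with no statement on strand. None of the 9 genes shared exon bases with another gene in the GRCm38 annotation at hand. FPKM scale each gene to the rest of its library, so a shift in a few abundant genes moves the others.

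Values were taken as log2(FPKM + 1), which understates changes of low genes. A gene was tested where 2 or more libraries reached 1 FPKM. The 4 group means of all 8 libraries were estimated together in limma 3.58.1 (R 4.3.3), with variances moderated along an intensity trend (4 residual and 2.46 prior degrees of freedom). Tests were 2-sided, with Benjamini-Hochberg adjustment over the 10610 genes within each contrast and a threshold of 0.05; rose and fell are used past it. Counts of reads were not analysed here. The fit was tested on simulated data. The members and the 15 lists were chosen with earlier results of these data known. Named genes were every member, up to 4 genes of a list with the smallest p, check genes, and the 3 nearest in pattern; some genes that the rule named are left out here. Also named are Klf2, Ada, Entpd1, Pdcd1, Il9, Tle1, Tle4 and Aes, after their values were seen. The alternatives changed the pseudocount, the filter, the scaling of libraries or the variance prior, added the replicate number as a block, restricted each fit to the groups compared, or dropped a library at a time.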

Additional observations from a re-analysis of the deposited data

How the results depend on the processing

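With only the libraries compared in the fit, 2177 genes passed in the LZ genotype contrast (3299 with all 8), 649 in the DZ genotype contrast (1258) and 1678 in the zone contrast of Bach2(+/+) (3312). With at least 5 FPKM required, 3 of the members passed in that zone contrast in place of 6, since fewer members were tested. Genes past the threshold for the difference between zones were 5 with no filter and 5 with a robust variance prior, in place of 3. Leaving out 1 library gave 1703 to 3140 genes in the LZ genotype contrast, 105 to 1339 in DZ, 2001 to 3053 in the zone contrast of Bach2(+/+), 2001 to 3856 in that of Bach2(f/f) (3623 with all) and 3 to 6 for the difference between zones. Members past the threshold were then 3 to 4 in LZ, 0 to 1 in DZ, 4 to 5 and 3 to 5 in the zone contrasts and 0 for the difference. Members that did not pass changed sign when 1 library was left out: Zbtb32 (-0.15 to 0.12) and Il9r (-0.197 to 0.0798) in LZ, Hhex (-0.113 to 0.0478) and Il9r (-0.230 to 0.0923) in DZ, Zbtb32 between the Bach2(+/+) zones (-0.0414 to 0.227), and Pdcd1lg2 (-0.237 to 0.0822) and Il9r (-0.15 to 0.17) for the difference between zones, where Il9r was -0.0170 with equal library totals. The cause was not tested. No call of a member changed sign. The replicate numbers were not shown to pair the libraries: deviations of same-numbered libraries correlated at -0.11 to 0.12. With the replicate block the calls of Pdcd1lg2 and Il9r between zones moved as given with them. The number of reads per library was not used, so what depth limits is not known.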
